A study of Mus musculus with 4 samples.

Results

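The insulin-like growth factor (IGF) ligands and binding proteins described here are 9 genes: the ligands Igf1 and Igf2, the ligand receptor Igf2r, and the binding proteins Igfbp2, Igfbp3, Igfbp4, Igfbp5, Igfbp6 and Igfbp7. They were chosen by name, and each matched 1 row of a gene count table with 39056 genes. Polyadenylated RNA was sequenced from 4 libraries of mouse lung cells, 1 per label. The labels are no LPS, 8 h, 16 h and 20 h, counted from an intraperitoneal dose of 10 mg/kg LPS. LPS, or lipopolysaccharide, is the bacterial endotoxin used to inflame lung vessels in mice. All 4 labels name S1PR1-GFP reporter mice, in which cells that express the sphingosine-1-phosphate receptor S1PR1 carry green fluorescent protein. The labels describe endothelial cells sorted as GFP+CD31+CD45-. No source used here gives the age, sex, strain or number of animals of a library.

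IGF-I and IGF-II are secreted peptides that bind the receptor tyrosine kinase IGF1R and, through adaptors, drive growth and survival signals. IGF2R, which is also the cation-independent mannose 6-phosphate receptor, takes up IGF-II for degradation and carries lysosomal enzymes to their compartment. The binding proteins hold the ligands in the extracellular fluid, lengthen or block their action, and are themselves cut by proteases. In lung tissue Igfbp7 is a familiar transcript of the vessel wall, and Igf1 is made by stromal cells and macrophages.

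The libraries held 27566454 to 28905776 reads. Levels are in CPM, read counts scaled to a common library size with edgeR's TMM factors, and a gene is called measured if it reached 1 CPM in at least 1 library, which 11803 genes did. Most transcripts that define the labelled cell type were close to absent: of 18 endothelial markers 4 were measured, Erg, Emcn, Cldn5 and Sox17 had 0 reads in all 4 libraries, and Pecam1, which encodes CD31, had 7 reads (no LPS), 2 (8 h), 2 (16 h) and 1 (20 h). The summed level of the endothelial list was 71.9 to 94.3 CPM, nearly all of it from Eng, a TGF-beta co-receptor gene at 53.6 to 57.2 CPM, and Flt1, a VEGF receptor gene at 11.4 to 28.3 CPM. The 12 fibroblast genes summed to 4304 to 4492 CPM, most of it from Vim at 2358 to 2871 CPM and Fn1 at 1184 to 1596 CPM, which many cell types express. The collagen genes Col1a1 and Col1a2, with Thy1 and Lum, had at most 4 reads in any library, while Prrx1 stood at 209 to 213 CPM. Col3a1, another collagen gene of the list, stood at 168 CPM (no LPS), 81.8 (8 h), 83.2 (16 h) and 163 (20 h). Pdgfra was at 31.3 to 34.4 CPM. Summed levels were 15.2 to 15.7 CPM for 8 leukocyte genes, 6.37 to 9.13 CPM for 8 smooth muscle and pericyte genes and 4.78 to 7.00 CPM for 5 mesothelial genes. The sum of 9 lung epithelial genes was 51.6 CPM (no LPS), 124 (8 h), 125 (16 h) and 52.1 (20 h), carried by the keratin genes Krt8 and Krt18, and that of 10 macrophage genes was 126 CPM (no LPS), 95.4 (8 h), 94.1 (16 h) and 128 (20 h). Most of the macrophage sum was Cd68, at 99.7 CPM (no LPS), 66.5 (8 h), 62.0 (16 h) and 96.6 (20 h). Adgre1 of the same list went the other way, at 0.425 CPM (no LPS), 1.08 (8 h), 2.78 (16 h) and 0.867 (20 h). The median of the macrophage list was 0.372 CPM (no LPS), 0.697 (8 h), 0.722 (16 h) and 0.849 (20 h). S1pr1 itself had 27 reads (no LPS), 87 (8 h), 79 (16 h) and 29 (20 h), and Cdh5, Kdr and Ptprc, which encodes CD45, each stayed at or under 42 reads. Measured genes numbered 5 of 8 for leukocytes, 5 of 10 for macrophages, 6 of 12 for fibroblasts, 2 of 8 for smooth muscle, 2 of 9 for epithelium and 2 of 5 for mesothelium, and Tcf21, Sftpb, Nkx2-1 and Wt1 were at 0 reads throughout. Their part in the results below was not tested. A label below therefore names a column of the table, and a direction is a direction between columns. The libraries labelled 8 h and 16 h were alike, with 28 genes differing by the rule of size given below, as were those labelled 20 h and no LPS, with 77 genes. Between 971 and 1034 genes differed in each of the 4 other pairs.

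The family was split into 3 well-expressed genes and 6 that were nearly silent. The 9 genes had 14605 reads together (no LPS), 16299 (8 h), 16005 (16 h) and 14916 (20 h). Of these, Igf1, Igf2, Igfbp2, Igfbp3, Igfbp5 and Igfbp7 took 11 reads (no LPS), 9 (8 h), 8 (16 h) and 9 (20 h), and Igfbp4, Igf2r and Igfbp6 took the rest. In such bulk libraries, fewer cells of a type and less RNA per cell cannot be told apart. A count of 0 allows up to 3 reads, which is 0.104 to 0.108 CPM here. No source used here mentions molecular identifiers, so this limit and the intervals below cover counting error only.

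To show the start regions of the 3 expressed genes beside that of Igfbp5, which had no read, the 250 bases upstream of the annotated RefSeq start are given (GRCm38.p6, gene strand). Capitals mark 3 motifs, searched on both strands with overlapping matches counted. The first motif searched was TATAAA, known as the TATA box. The second motif searched was GGGCGG, known as the GC box. The other motif searched was CACGTG, an E-box that reads the same on both strands. The E-box was added after the sequences were seen.
Igfbp4, chr11:99040994-99041243, plus strand: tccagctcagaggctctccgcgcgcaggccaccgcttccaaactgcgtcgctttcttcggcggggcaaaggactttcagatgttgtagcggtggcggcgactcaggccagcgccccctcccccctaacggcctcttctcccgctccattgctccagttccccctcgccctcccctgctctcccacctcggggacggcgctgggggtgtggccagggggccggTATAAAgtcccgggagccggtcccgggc
Igfbp6, chr15:102143936-102144185, plus strand: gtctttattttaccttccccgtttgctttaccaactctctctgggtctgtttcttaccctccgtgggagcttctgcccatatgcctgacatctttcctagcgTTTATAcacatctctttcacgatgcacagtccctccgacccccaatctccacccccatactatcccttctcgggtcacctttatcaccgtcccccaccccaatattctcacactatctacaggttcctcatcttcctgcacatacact
Igf2r, chr17:12769707-12769956, minus strand: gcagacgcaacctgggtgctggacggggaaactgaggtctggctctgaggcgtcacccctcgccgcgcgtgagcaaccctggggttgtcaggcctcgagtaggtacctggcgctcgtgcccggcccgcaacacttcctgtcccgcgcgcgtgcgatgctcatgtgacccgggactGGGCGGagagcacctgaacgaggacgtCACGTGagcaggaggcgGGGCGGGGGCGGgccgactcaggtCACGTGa
Igfbp5, chr1:72874866-72875115, minus strand: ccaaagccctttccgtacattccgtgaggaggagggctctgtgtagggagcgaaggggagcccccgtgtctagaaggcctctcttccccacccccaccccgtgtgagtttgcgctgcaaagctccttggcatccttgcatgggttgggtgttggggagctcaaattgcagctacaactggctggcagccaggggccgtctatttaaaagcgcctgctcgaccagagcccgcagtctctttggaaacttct

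None of the 3 motifs was found at all 3 expressed genes. The Igfbp4 window held 1 TATAAA and no GC box, at 69.2% G and C. The Igfbp6 window held 1 TATAAA, on the opposite strand, with 49.6% G and C, and its RefSeq start lies 176 bases upstream of the GENCODE gene start. The Igf2r window held no TATAAA, 3 GC boxes and 2 E-boxes. The Igfbp5 window held none of the 3 motifs. Of 32851 windows of the same length, 12.4% held the TATA box, 32.7% the GC box and 6.02% the E-box, and among windows of measured genes these shares were 6.22%, 59.0% and 8.38%. The ratio of observed to expected CpG was 0.748 for Igfbp4, 0.651 for Igfbp6 and 0.913 for Igf2r, against a median of 0.734 for windows of measured genes and 0.239 for those of genes below 1 CPM. Among the silent members it ranged from 0.0637 at 1 of the 4 starts of Igf2 to 0.958 at Igfbp3, so the expressed and silent members overlapped. A match is a description of the letters and not evidence of binding.

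The ligands came close to absence. Igf1 (ENSMUSG00000020053.18, chromosome 10, 87858265 to 87937042, plus strand, mm10) encodes the growth hormone-dependent ligand and had 2 reads (no LPS), 2 (8 h), 3 (16 h) and 1 (20 h). Igf2 (ENSMUSG00000048583.16, chromosome 7, 142650766 to 142666816, minus strand) encodes the fetal growth ligand, is imprinted in mice and had 1 read (no LPS), 2 (8 h), 0 (16 h) and 0 (20 h). Neither ligand was above the limit of 3 reads in any library, so no fold is given for them. The Igf2 count carries a limit of its own: 62.8% of its exon bases are also annotated to Gm49394, a gene on the same strand that is not analysed here, and no source used here tells how such shared reads were counted. H19, the imprinted noncoding neighbour of Igf2, had 18 reads (no LPS), 8 (8 h), 9 (16 h) and 14 (20 h).

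Igf2r (ENSMUSG00000023830.13, chromosome 17, 12682406 to 12769664, minus strand) was the steadiest of the expressed members. It had 256 CPM (no LPS), 265 (8 h), 270 (16 h) and 249 (20 h), from 6891 to 7607 reads. The highest library exceeded the lowest by 1.09-fold, and 87.6% of 9095 genes that reached 10 CPM had a range at least as large. Its antisense noncoding partner Airn overlaps the gene but shares no exon base with it in the annotation.

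Igfbp4 (ENSMUSG00000017493.12, chromosome 11, 99041244 to 99054392, plus strand) encodes a binding protein that mostly inhibits IGF action until it is cut, and it was the most abundant member per length. It had 246 CPM (no LPS), 282 (8 h), 285 (16 h) and 271 (20 h), from 6951 to 8088 reads. The library labelled 16 h exceeded the lowest, that labelled no LPS, by 1.16-fold, and 68.1% of genes that reached 10 CPM had a range at least as large.

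Igfbp6 (ENSMUSG00000023046.6, chromosome 15, 102144362 to 102149511, plus strand) encodes a binding protein that prefers IGF-II, and it varied most. It had 14.2 CPM (no LPS), 20.7 (8 h), 22.2 (16 h) and 18.3 (20 h), from 402 to 616 reads. The library labelled no LPS was the lowest and that labelled 16 h the highest, by 1.56-fold, and 15.9% of genes that reached 10 CPM had a range at least as large.

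The remaining binding proteins were at or near 0. Igfbp5 (ENSMUSG00000026185.8, chromosome 1, 72857932 to 72874884, minus strand), which encodes the most conserved binding protein of the family and binds matrix, had 0 reads in all 4 libraries. Its neighbour Igfbp2 (ENSMUSG00000039323.18, chromosome 1, 72824503 to 72852474, plus strand), whose product can bind integrins, lies 5458 bases away and had 1 read (no LPS), 0 (8 h), 0 (16 h) and 1 (20 h). Igfbp3 (ENSMUSG00000020427.11, chromosome 11, 7206086 to 7213923, minus strand) encodes the main carrier of IGFs in blood and had 3 reads (no LPS), 4 (8 h), 3 (16 h) and 2 (20 h). Igfbp1, a liver-enriched binding protein gene 3540 bases from Igfbp3, had 0 reads in all 4 libraries. Igfbp7 (ENSMUSG00000036256.13, chromosome 5, 77349240 to 77408041, minus strand), the low-affinity member of the vessel wall, had 4 reads (no LPS), 1 (8 h), 2 (16 h) and 5 (20 h). Igfbp7 shares 7.03% of its exon bases with Polr2b on the opposite strand. None of these binding protein genes passed 0.181 CPM in any library.

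**Figure D1:**
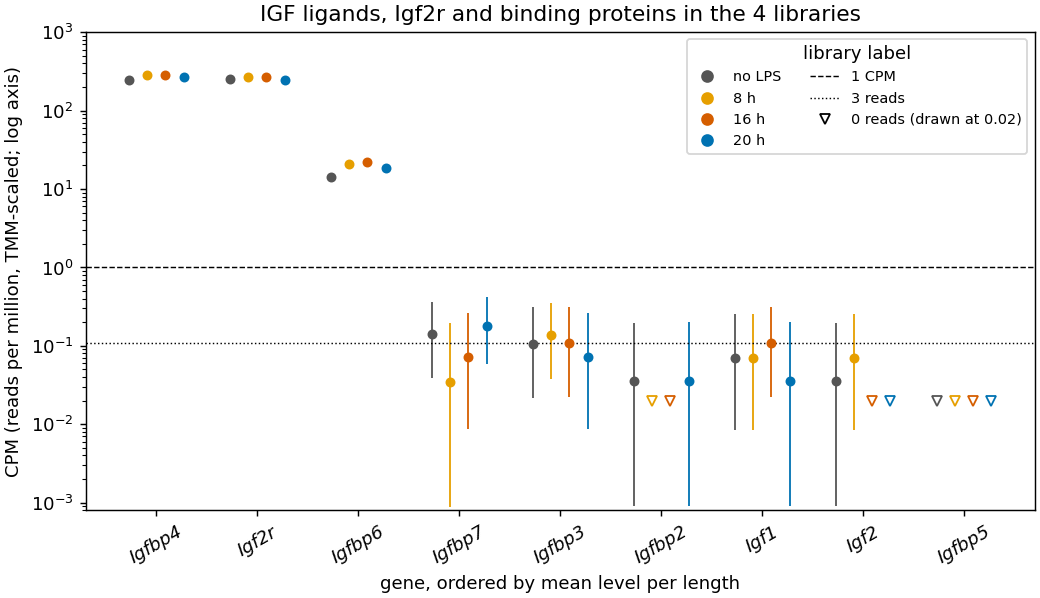
CPM on a log axis for the 9 genes in the 4 libraries, with exact Poisson 95% intervals of the reads; open triangles stand for 0 reads, the dashed line for 1 CPM and the dotted line for 3 reads. Igfbp4, Igf2r and Igfbp6 lie between 14.2 and 285 CPM, and the other 6 genes lie at or under 0.181 CPM.

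Levels between genes were compared as CPM per kilobase of annotated exon. On this scale Igfbp4 averaged 61.4 over the 4 libraries, Igf2r 27.9 and Igfbp6 17.0. Among measured genes, 94.7% lay below Igfbp4, 84.1% below Igf2r and 72% below Igfbp6. The level of Igfbp4 per length was 4.35 times that of Igfbp6 with no LPS, 3.42 times at 8 h, 3.23 times at 16 h and 3.72 times at 20 h. The order of the 3 genes was the same in each library. The next gene in the order, Igfbp7, averaged 0.0887, and its Poisson intervals overlapped those of Igfbp3.

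With 1 library per label no test of a pair of labels is possible, and pairs were described by a rule of size. A call of higher or lower required a scaled fold of 2 or more, a 95% counting interval (exact, conditional binomial) without the value 1, and 1 CPM or more in one of the libraries compared. These calls compare libraries, not conditions, and the 3 comparisons with no LPS share that library. The question behind the times is how the sorted cells change over the course of endotoxin injury.

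At 8 h none of the 3 measured members was called, against 8.31% of all measured genes. In the same pair Krt18 was 2.38-fold (2.22 to 2.56), Krt8 2.48-fold (2.20 to 2.81) and Flt1 2.33-fold higher (2.05 to 2.66). The macrophage marker Adgre1 was 2.54-fold higher (1.27 to 5.44), from 31 reads at 8 h and 12 with no LPS. Cd68, which made up most of the macrophage sum, was lower, at 66.5 CPM at 8 h and 99.7 CPM with no LPS. The fibroblast markers Dcn and Col3a1 were 3.20-fold (2.50 to 4.14) and 2.05-fold lower (1.95 to 2.15). Fn1 of that list was also lower, at 1218 CPM at 8 h and 1596 CPM with no LPS. Vim of that list was higher, at 2760 CPM at 8 h and 2358 CPM with no LPS. The intervals of Prrx1 and Pdgfra included 1, so neither list went in a single direction. The endothelial marker Eng was at 1.01-fold (0.940 to 1.08). The part of such marker differences in those of the members was not tested. Igfbp6 stood at 20.7 CPM at 8 h and 14.2 CPM with no LPS, a 1.46-fold ratio (1.28 to 1.66), and Igfbp4 at 282 CPM at 8 h and 246 CPM with no LPS, a 1.15-fold ratio (1.11 to 1.18). Igf2r was at 1.03-fold (1.001 to 1.07). The counting interval excluded 1 for all 3, as it did for 70.3% of measured genes. For Igf2r the lower bound lay so close to 1 that this held with TMM but not with scaling by library size. Absolute log2 ratios at least as large were found for 23.3% of measured genes in the case of Igfbp6, 61.9% for Igfbp4 and 90.0% for Igf2r.

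At 16 h 0 of 3 were called as well, against 8.23% of all measured genes. Igfbp6 stood at 22.2 CPM at 16 h and 14.2 CPM with no LPS, a 1.56-fold ratio (1.38 to 1.78), and it was the only member to pass a fold of 1.5, a rule that 20.0% of measured genes passed. Igfbp4 was at 1.16-fold (1.12 to 1.2) and Igf2r at 1.05-fold (1.02 to 1.09). All 3 intervals excluded 1, as did 70.9% of those of measured genes.

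At 20 h 0 of 3 were called, against 0.652% of all measured genes. Igfbp6 stood at 18.3 CPM at 20 h and 14.2 CPM with no LPS, a 1.29-fold ratio (1.13 to 1.47), and Igfbp4 at 271 CPM at 20 h and 246 CPM with no LPS, a 1.10-fold ratio (1.07 to 1.14). Igf2r was at 0.971-fold (0.940 to 1.0), with an interval that included 1. In this pair of like libraries the interval excluded 1 for 26.5% of measured genes, and for 2 of the 3 members. The ratio of Igfbp6 was equalled or exceeded in size by 7.61% of measured genes, that of Igfbp4 by 28.6% and that of Igf2r by 70.7%.

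Between successive times no member was called either. The library labelled 16 h against that labelled 8 h had 0 of 3 called, against 0.237% of all measured genes. No interval excluded 1 there, against 10.6% of measured genes, with Igfbp6 at 1.07-fold (0.957 to 1.2). The library labelled 20 h against that labelled 16 h had 0 of 3 called, against 8.47% of all measured genes. All 3 intervals excluded 1, as did those of 71.4% of measured genes in either direction. The 3 members were lower at 20 h than at 16 h, Igfbp6 at 1.21-fold (1.08 to 1.37), Igf2r at 1.09-fold (1.05 to 1.12) and Igfbp4 at 1.05-fold (1.02 to 1.09).

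The test made across labels was a linear trend over 0, 8, 16 and 20 h, fitted in edgeR with 2 residual degrees of freedom. It called 0 of 11803 genes, which is 0.0%, at an adjusted p under 0.05, with 43 genes at an unadjusted p under 0.05, and DESeq2 called 0 with 25. A difference shared by the libraries labelled 8 h and 16 h but not 20 h counts as scatter in a linear fit. Such differences could hardly be called, so 0 calls does not mean that the libraries were alike. The fitted log2 change over the span was 0.42 for Igfbp6, 0.15 for Igfbp4 and -0.01 for Igf2r, each with an adjusted p of 1.0 in edgeR's quasi-likelihood test. Only Igfbp4, Igfbp6 and Igf2r of the 9 genes passed the filter for this fit.

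**Figure D2:**
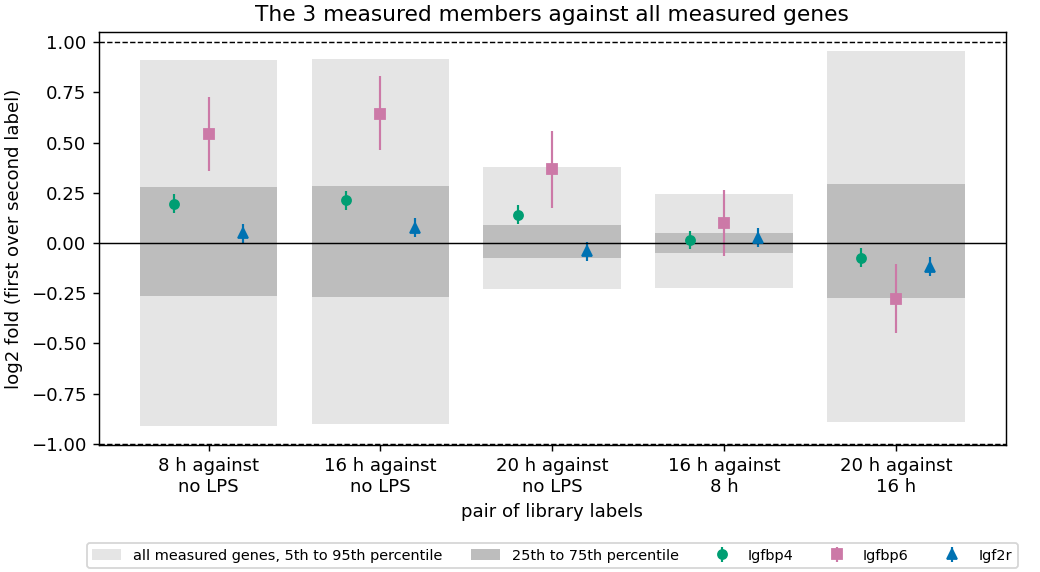
Log2 fold of Igfbp4, Igfbp6 and Igf2r in 5 pairs of libraries with exact 95% counting intervals, over the spread of log2 ratios (prior count 2) of all measured genes; dashed lines mark the fold of 2. No point reaches a dashed line, and Igfbp6 is the member farthest from 0 in each pair.

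Read shares between related genes do not depend on how the libraries are scaled. Igfbp6 made up 5.47% of the reads of Igfbp4 and Igfbp6 with no LPS (exact binomial interval 4.96 to 6.01), 6.85% at 8 h (6.33 to 7.40), 7.23% at 16 h (6.69 to 7.81) and 6.34% at 20 h (5.81 to 6.89). The intervals at 8 h and 16 h lay above that with no LPS, and the interval at 20 h overlapped all of the others. They cover counting error only. Counting intervals of the fold against no LPS excluded 1 for 70.3% (8 h) and 70.9% (16 h) of measured genes. How often other gene pairs separate in this way was not counted. Of the reads of Igf2r and M6pr, which encodes the smaller mannose 6-phosphate receptor, Igf2r took 64.0% (no LPS), 65.7% (8 h), 66.1% (16 h) and 63.4% (20 h).

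Receptor genes for the ligands were measured in all 4 libraries. Igf1r, the signalling receptor, stood at 81.5 CPM (no LPS), 102 (8 h), 92.9 (16 h) and 80.7 (20 h). Insr, the insulin receptor gene, stood at 141 CPM (no LPS), 116 (8 h), 114 (16 h) and 146 (20 h). Igf1r took 36.7% of the reads of this pair with no LPS (35.5 to 37.9), 46.8% at 8 h (45.6 to 48.1), 44.8% at 16 h (43.5 to 46.1) and 35.6% at 20 h (34.4 to 36.8). The libraries labelled 8 h and 16 h lay above those labelled no LPS and 20 h with no overlap of intervals. Between such libraries the counting interval of the fold excluded 1 for most measured genes, 70.3% at 8 h against no LPS. Krt8 and Krt18, the only measured genes of the epithelial list, were also higher there. Of the macrophage list Cd68 was lower and Adgre1 higher, and the part of these differences was not tested. Per length, Igf2r was at 4.67 to 5.67 times the level of Igf1r.

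**Figure D3:**
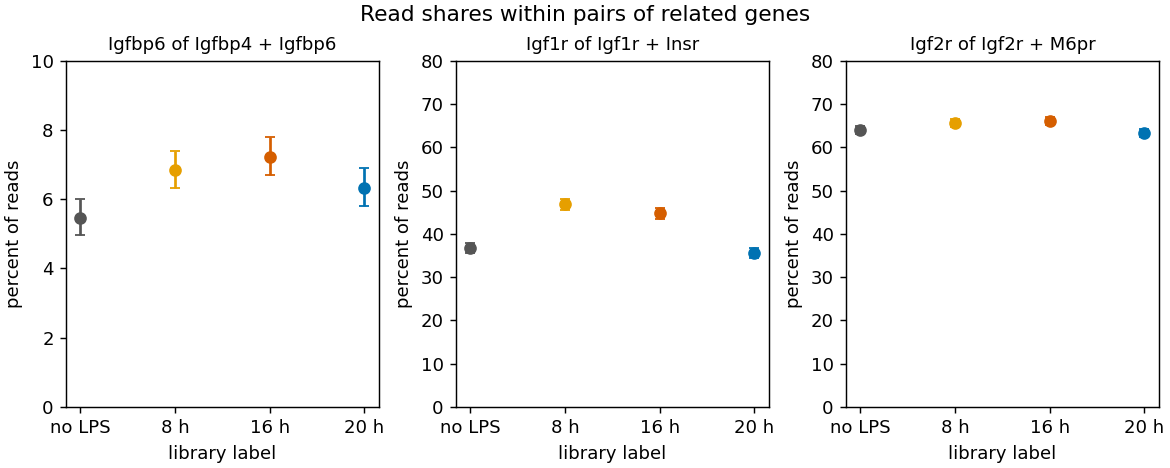
Percent of reads taken by Igfbp6, Igf1r and Igf2r within a pair of related genes, by library label, with exact binomial 95% intervals. The Igfbp6 share is lowest with no LPS at 5.47%, and the Igf1r share is highest at 8 h at 46.8%.

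Genes that act with the members were taken from 8 lists, chosen with earlier results of these data known, which hold 129 genes of the table, 95 of them measured. At 8 h 3 were higher and 3 lower, 6.32% of the 95 beside the 8.31% of all measured genes, and the counts were the same at 16 h. At 20 h 1 was higher, 1.05% beside 0.652%. The median log2 ratio of the 95 genes, like that of all measured genes, was within 0.01 of 0 in each of the 3 comparisons. The 3 measured members had median log2 ratios of 0.20 (8 h), 0.21 (16 h) and 0.14 (20 h), each the value of Igfbp4 alone. Igf2r was at -0.042 at 20 h. The 75th percentile of all measured genes was 0.28 (8 h), 0.29 (16 h) and 0.090 (20 h). The 95th percentile at 20 h was 0.38.

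The proteases that free IGFs from their binding proteins bear on Igfbp4 most directly. Pappa encodes pappalysin, the protease that cuts IGFBP-4, and it had 0 reads (no LPS), 0 (8 h), 0 (16 h) and 1 (20 h). Stc2 encodes a stanniocalcin that inhibits pappalysin and was lower, at 9.20 CPM at 8 h and 22.6 CPM with no LPS, 2.45-fold (2.12 to 2.84). At 16 h it stood at 9.60 CPM, 2.35-fold lower (2.03 to 2.72), and at 20 h at 20.3 CPM, not called. Of the 7 measured genes of this list of 18, Stc2 was the only call at 8 h and at 16 h, 14.3% beside the 8.31% and 8.23% of all measured genes, and 0 were called at 20 h. Htra1, a secreted protease gene of the same list, was not called but stood at 99.4 CPM at 8 h and 180 CPM with no LPS.

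Among genes whose products share the binding-protein domain, 3 of 5 measured were higher at 8 h and at 16 h, beside the 8.31% and 8.23% of all measured genes called, none was lower, and 0 were called at 20 h. Krt8 and Krt18 of the epithelial list were higher in the same 2 libraries. The 3 genes called here encode matricellular proteins of the CCN family. Ccn2 was at 6.65 CPM at 8 h and 1.13 CPM with no LPS, 5.88-fold (4.03 to 8.83), Ccn1 was at 82.1 CPM at 8 h and 37.8 CPM with no LPS, 2.17-fold (2.02 to 2.33), and Ccn4 was at 2.37 CPM at 8 h and 1.06 CPM with no LPS, 2.23-fold (1.43 to 3.55). The list's median was 1.11 at 8 h on the log2 scale and 0.14 at 20 h. Igfbp4 and Igfbp6, which carry the domain, did not reach a fold of 2.

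Receptor and adaptor genes had 1 of 11 measured called at 8 h and at 16 h, 9.09% beside the 8.31% and 8.23% of all measured genes, and 0 at 20 h. Insrr, the insulin receptor-related receptor gene, was lower at 8 h with 4 reads, against 32 with no LPS, 8.13-fold (2.88 to 31.6), and at 16 h with 5 reads, 6.27-fold (2.43 to 20.6). In the arm from PI3K to MTOR 0 of 22 were called in any comparison with no LPS. The shares of all measured genes called were 8.31% (8 h), 8.23% (16 h) and 0.652% (20 h), at which a list of this size holds few calls. The arm's most abundant gene per length, Eif4ebp1, a repressor of cap-dependent translation, stood at 280 CPM (no LPS), 286 (8 h), 296 (16 h) and 336 (20 h).

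Control of Igf2 mRNA had 0 of 8 measured genes called against no LPS, beside 8.31% (8 h), 8.23% (16 h) and 0.652% (20 h) of all measured genes. Of the RNA-binding protein genes in this list, Igf2bp2 was at 309 CPM (no LPS), 423 (8 h), 429 (16 h) and 320 (20 h), and Igf2bp1 at 31.4 CPM (no LPS), 43.5 (8 h), 45.0 (16 h) and 32.3 (20 h). Hmga1, a chromatin protein gene and the most abundant of that list per length, was at 309 CPM (no LPS), 345 (8 h), 332 (16 h) and 374 (20 h). In the imprinted gene list 1 of 8 measured genes was called at 8 h and at 16 h, 12.5% beside the 8.31% and 8.23% of all measured genes. It was Dcn, which encodes the matrix proteoglycan decorin, at 2.96 CPM at 8 h and 9.48 CPM with no LPS, 3.20-fold lower (2.50 to 4.14), and 2.77-fold lower at 16 h (2.18 to 3.53). Dcn is also in the fibroblast marker list. Growth hormone signalling had 1 of 8 called at 20 h, 12.5% beside the 0.652% of all measured genes, and 0 at 8 h and 16 h. It was the feedback gene Socs1, at 6.75 CPM at 20 h and 2.87 CPM with no LPS, 2.36-fold higher (1.81 to 3.10). The growth hormone receptor gene Ghr was at 57.1 CPM (no LPS), 79.1 (8 h), 77.6 (16 h) and 59.8 (20 h). For the second function of Igf2r, 0 of 27 genes of mannose 6-phosphate sorting were called against no LPS. The shares of all measured genes were again 8.31% (8 h), 8.23% (16 h) and 0.652% (20 h). The most abundant of the 27, the cathepsin gene Ctsl, stood at 1467 CPM (no LPS), 1343 (8 h), 1323 (16 h) and 1368 (20 h).

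**Figure D4:**
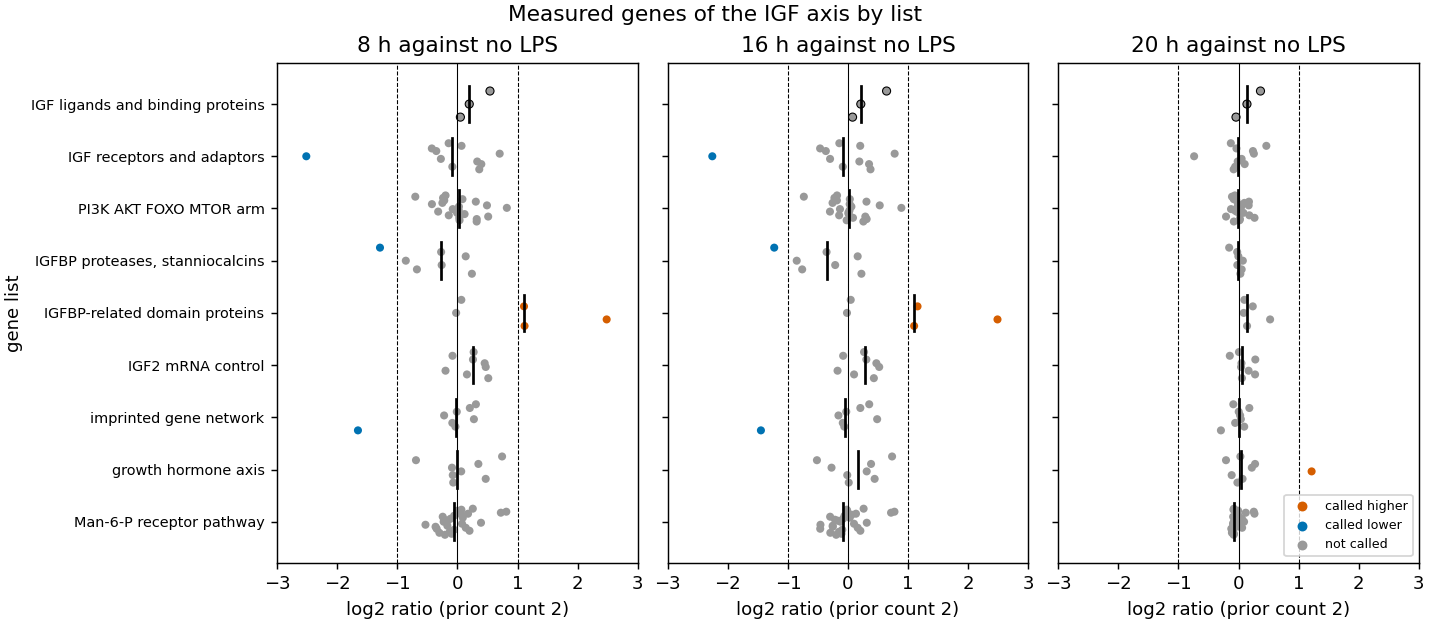
Log2 ratios of measured genes in the family and in 8 lists of related genes, in the 3 comparisons with no LPS; vertical bars are list medians and dashed lines the fold of 2. The 3 measured family members are grey in each panel, and Ccn1, Ccn2 and Ccn4 lie beyond the right-hand dashed line at 8 h and 16 h.

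The pattern of Igfbp6, the member with the largest range, was set against 9094 other genes that reached 10 CPM, as the distance between log2 CPM profiles centred on their own means over the 4 libraries. The nearest were Magohb at a distance of 0.031 and Mcub at 0.035, followed by Lmna, H1f0 and Pawr at up to 0.076. Lmna, which encodes the nuclear lamins A and C, stood at 292 CPM (no LPS), 414 (8 h), 433 (16 h) and 377 (20 h). Within a distance of 0.1 lay 0.165% of the genes compared, within 0.2 lay 162 genes or 1.78%, and within 0.5 lay 46.3%. Neighbours of other genes were not counted, so these shares do not show whether the pattern is rare. With 4 libraries it is a description only.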

How the data were processed

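The deposited table holds raw read counts, not normalized by the authors. STAR, featureCounts and mm10 are named per the submitters' processing notes. No source used here gives versions, annotation, strand handling or the treatment of shared reads. Columns were matched to samples by title, and groups follow the treatment label. Gene symbols, coordinates and lengths (union of exons) came from GENCODE M21 of the same build by stable identifier, which matched 38872 of 39056 rows. For the promoters, RefSeq windows of all 9 genes matched by symbol.

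Counts were scaled with TMM factors (edgeR 4.0.16, R 4.3.3) from all 4 libraries. Folds and intervals were computed in Python 3.11.15 with scipy 1.17.1, log2 ratios with a prior count of 2. The trend used glmQLFit and glmQLFTest on the measured genes, with Benjamini-Hochberg adjustment. It was also run on simulated data with straight-line trends. Their scatter was set well below the common dispersion of 0.061 fitted to these libraries, so that run does not show the power reached here. DESeq2 1.42.0 was the other test. The trend's p-values set the linear change against the scatter of these 4 libraries around a straight line. With 1 library per label, any curved pattern and any technical spread both enter that scatter and cannot be told apart.

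Members and lists were chosen with earlier results of these data known. Named genes are the members, up to 4 called genes per list by largest absolute log2 ratio against no LPS or else the most abundant, and the 5 genes nearest in pattern to the most variable member. The rule also names S1pr1, Pecam1, Cdh5, Kdr, Ptprc, Vim and Prrx1, and markers at 0 reads are named from their lists. Igf1r, Insr, M6pr, Pappa, Htra1, Igfbp1, H19, Eng, Flt1, Fn1, Col1a1, Col1a2, Thy1, Lum, Krt8, Krt18, Igf2bp1, Igf2bp2 and Ghr were chosen after their values were seen. So were Col3a1, Pdgfra, Cd68 and Adgre1. Airn, Gm49394 and Kcnq1ot1 are not analysed here.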

Additional observations from a re-analysis of the deposited data

How the results depend on the processing

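No member was called in any of the 5 pairs under 8 of 9 alternatives: scaling by library size, DESeq2 size factors or upper quartiles, no minimum level or 10 CPM, a fold of 4, a stricter interval level, and libraries thinned to the smallest total. With a fold of 1.5, 1 member, Igfbp6, was called at 16 h against no LPS. The 90 recomputed log2 ratios of Igfbp4, Igfbp6 and Igf2r under other scalings, thinning and prior counts of 0.5 and 10 stayed within their counting intervals, and the order of the 3 genes was the same with the length of the longest transcript. The log2 ratio of Igf2r at 8 h against no LPS was 0.049 with TMM and 0.028 with library size. At 20 h it was -0.042 with TMM and -0.069 with upper quartiles. The interval moves with the ratio. That of Igf2r included 1 at 8 h with library size and excluded 1 at 20 h with upper quartiles, so this outcome depends on the scaling.

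Counts over all genes moved with the rule. With a fold of 1.5 they were 2343 at 8 h, 2356 at 16 h and 236 at 20 h against no LPS, 92 at 16 h against 8 h and 2449 at 20 h against 16 h. With a fold of 4 they were 187, 178, 9, 2 and 184 in the same order of pairs, and with a minimum of 10 CPM 332, 332, 22, 0 and 357. With no minimum they were 1484 at 16 h and 216 at 20 h against no LPS, and 172 at 16 h against 8 h. The stricter interval gave 40 at 20 h against no LPS and 4 at 16 h against 8 h.

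The trend called 0 genes under all 8 alternatives. Its direction for Igfbp4 and Igfbp6 rests on the library labelled no LPS, without which the fitted log2 changes were -0.10 and -0.23. For Igf2r the change was 0.095 without the library labelled 20 h. Over the fits that leave out 1 library, the changes ran from -0.10 to 0.27 for Igfbp4, from -0.23 to 0.80 for Igfbp6 and from -0.14 to 0.095 for Igf2r. The cause was not tested. No paired analysis was possible because each label has 1 library. Depth limits the 6 silent members, for which a difference between libraries was not detectable.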
